A study of Homo sapiens with 2 samples.

Results

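The albumin family and hepatic carrier genes are a set of 10 genes whose proteins carry lipids, hormones, vitamins and metals in plasma or, for FABP1, inside the hepatocyte. The members were ALB, AFP, AFM, GC, TTR, TF, RBP4, AHSG, FETUB and FABP1, and every probe set annotated to 1 of these genes alone was used. The platform annotation gave 20 such probe sets for 9 of the 10 genes, among 41091 probe sets and 19775 genes in all. GC, the vitamin D-binding protein, had none and is not analysed here. Expression was measured in Huh7, an established line of human hepatocellular carcinoma, in 2 cultures that were each hybridised to 1 Affymetrix array. One culture was stably transduced by lentivirus with an shRNA against CD24, a small glycoprotein of the cell surface, and the other with a non-target control shRNA. Both groups therefore share the line, the lentiviral transduction and a hairpin. The comparison asked which transcripts differ when CD24 is knocked down. With 1 array per group there is no replicate check, no test across cultures and no p-value.

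Albumin is the most abundant plasma protein and binds fatty acids, bilirubin and many drugs. It is one of the products by which a differentiated hepatocyte is recognised, whereas alpha-fetoprotein, its close relative, is the main fetal counterpart and is made again in many liver cancers. The other carriers have narrower cargoes: transferrin binds iron, the retinol-binding protein RBP4 binds vitamin A and travels in a complex with transthyretin, transthyretin also binds thyroid hormone, and the fetuins bind mineral. Liver-enriched transcription factors such as HNF1, C/EBP, FOXA and HNF4 proteins are known to act on the promoters of these genes.

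Each value below is a log2 difference, CD24 shRNA minus control, and a gene's value is the mean over its probe sets. The deposited values had been centred within each probe set, so the centred values of the 2 arrays were equal and opposite, and the level of a transcript was not in the table. The error after a gene's value is the SD across its own probe sets; it measures how far the probe sets disagree and says nothing of how cultures vary. The number of arrays limits the precision. CD24 itself had a centred log2 value of 0.68 in the control and -0.68 in the CD24 shRNA array, a difference of -1.37 ± 0.38 (SD, 6 probe sets), on the side that the labels give. The names of all 6 end in _s_at or _x_at, suffixes of probe sets that can match more than 1 transcript. CD24 therefore had no value without that class. Because levels are not in the table, the hepatocyte identity of the cells could not be checked against the abundance of its markers.

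The promoters of ALB, AFP, AHSG and FABP1 are shown to set their known regulatory elements beside the measured differences. ALB and AFP differed little on average, though the probe sets of ALB ranged from -0.66 to 0.37. AHSG and FABP1 were the members that were lowest with CD24 shRNA. The sequences are those of RefSeq on GRCh38.p14, each covering the 250 bases before the start of the gene, written 5′ to 3′ on the strand of the gene. Capitals mark matches on either strand to 6 motifs. The box bound by the general transcription machinery was searched as TATAAA. The box bound by NF-Y was searched as CCAAT. The half-site of HNF1 was searched as GTTAAT. A loose element of C/EBP was searched as TTGCNNAA. The core bound by FOXA proteins was TGTTT followed by any base and C, and the core of HNF4 was CAAAGTCCA. The ALB window is chr4:73404037-73404286 on the plus strand, the AFP window chr4:73435971-73436220 on the plus strand, the AHSG window chr3:186612810-186613059 on the plus strand and the FABP1 window chr2:88128063-88128312 on the minus strand.
ALB: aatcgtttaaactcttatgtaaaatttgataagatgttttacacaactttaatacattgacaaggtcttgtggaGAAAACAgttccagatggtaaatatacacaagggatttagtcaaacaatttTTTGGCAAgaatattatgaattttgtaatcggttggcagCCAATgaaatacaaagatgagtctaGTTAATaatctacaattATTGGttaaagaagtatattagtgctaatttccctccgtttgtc
AFP: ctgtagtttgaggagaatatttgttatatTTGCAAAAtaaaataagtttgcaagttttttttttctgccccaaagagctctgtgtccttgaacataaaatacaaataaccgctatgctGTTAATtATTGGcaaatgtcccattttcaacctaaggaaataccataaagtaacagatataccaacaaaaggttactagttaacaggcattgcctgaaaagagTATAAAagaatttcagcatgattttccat
AHSG: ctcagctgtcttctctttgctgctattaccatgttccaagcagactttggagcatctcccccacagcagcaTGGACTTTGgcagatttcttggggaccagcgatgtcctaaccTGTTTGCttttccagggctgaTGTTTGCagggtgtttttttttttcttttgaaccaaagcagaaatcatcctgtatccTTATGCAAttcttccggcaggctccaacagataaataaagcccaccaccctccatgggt
FABP1: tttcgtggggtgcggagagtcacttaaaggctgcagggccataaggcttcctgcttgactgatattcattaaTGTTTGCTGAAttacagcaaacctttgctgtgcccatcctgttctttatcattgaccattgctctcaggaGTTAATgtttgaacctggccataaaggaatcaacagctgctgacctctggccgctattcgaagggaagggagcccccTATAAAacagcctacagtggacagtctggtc
In these sequences, adjoining or overlapping matches print as 1 run of capitals, as for the FOXA and C/EBP matches of FABP1.

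Of the 9 measured carriers, AHSG and FABP1 were at least 1.5-fold lower with CD24 shRNA and none was at least 1.5-fold higher. Over all genes, 2.38% were at least 1.5-fold lower and 2.63% at least 1.5-fold higher. TF and RBP4 were lower to a smaller extent, on every one of their probe sets, and TTR was the highest member. ALB, AFP, AFM and FETUB had means between -0.11 and 0.10. In all, 5 members lay below 0 and 4 above, against 47.5% of all genes below and 49.4% above, and their median was -0.11 against 0 for all genes. That median was 0 without _s_at and _x_at probe sets, which left 7 members and dropped AHSG and RBP4. At a lower limit, a log2 difference of 0.32, 4 members were lower and 1 higher, where 8.65% of all genes were lower and 9.16% higher. No member passed 2-fold, which 0.485% of all genes did downward and 0.632% upward. The SD of the 9 gene values was 0.42, against 0.30 over all genes.

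**Figure D1:**
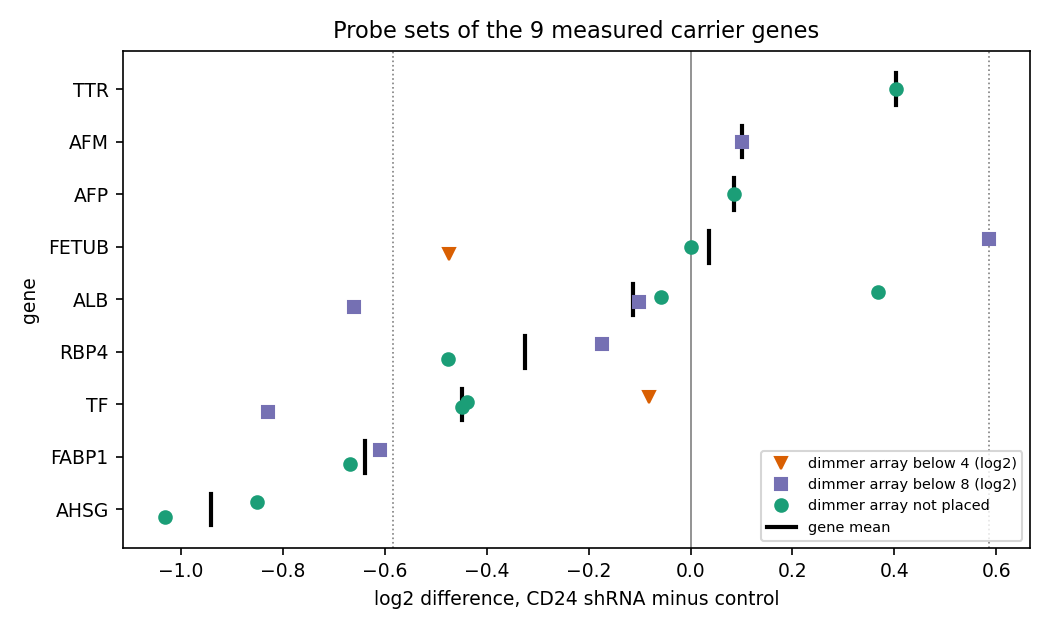
Log2 difference (CD24 shRNA minus control) of each of the 20 probe sets of the 9 measured carrier genes, with the mean of each gene as a vertical bar and dotted lines at 1.5-fold. Marker shapes give where the dimmer array was placed on the log2 scale. Both AHSG and both FABP1 probe sets lie below the lower dotted line, while those of ALB and FETUB lie on both sides of 0.

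**Figure D2:**
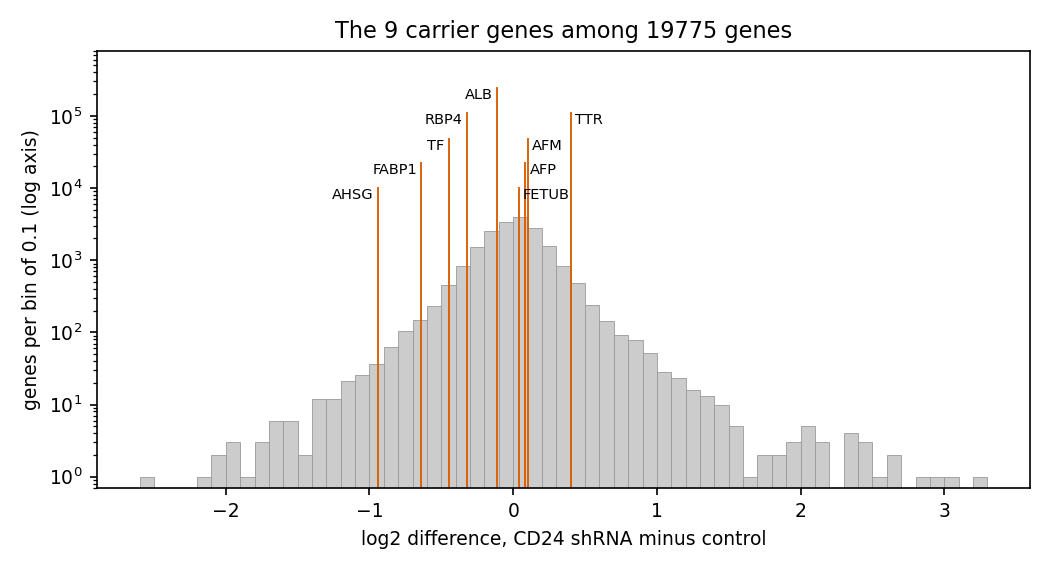
Histogram of the log2 difference of 19775 genes in bins of 0.1 (grey bars, log axis), with the 9 carrier genes as vertical lines whose heights only separate the labels. AHSG and FABP1 lie in the lower tail at -0.94 and -0.64, and TTR on the upper flank at 0.40.

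Within the albumin family, which shares one fold and one ancestral gene, the 3 measured transcripts differed little on average. ALB had 4 probe sets with differences of -0.66, -0.10, -0.06 and 0.37. Their mean was -0.11 ± 0.42 (SD, 4 probe sets), with centred values of 0.06 in the control and -0.06 in the CD24 shRNA array. The ALB probe sets thus disagreed in sign, and the spread among them exceeded their mean. Of 1393 genes with 4 probe sets, 7.61% had a larger SD than ALB.

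The ALB probe set with the lowest value, at 1.58-fold lower, was the only one whose name does not end in _s_at, a suffix for probe sets that can match more than 1 transcript. Without _s_at and _x_at probe sets ALB therefore lay at -0.66, past 1.5-fold. That probe set and the one at -0.10 had a dimmer array below 8 on the log2 scale. The other two, at -0.06 and 0.37, were not placed below 8. An average of the 4 probe sets thus hides a range from 1.58-fold lower to 1.29-fold higher for the same gene.

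The placement comes from the digits of the deposited values. They are differences of single-precision numbers, whose steps become finer below 8 and finer again below 4, so a fine step places the dimmer array of that probe set below the limit. A probe set that is not placed may lie on either side. Below 4, near the array's background, were 25.6% of all probe sets used and 2 of the 20 of the carriers, 1 of TF and 1 of FETUB.

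AFP, the fetal counterpart of albumin and a marker of hepatocellular carcinoma, had centred values of -0.04 in the control and 0.04 in the CD24 shRNA array. The difference was 0.08 on its 1 probe set, or 1.06-fold higher. AFM encodes afamin, a plasma carrier of vitamin E that also binds lipid-modified Wnt proteins. Its centred values were -0.05 and 0.05, a difference of 0.10 on 1 probe set. Both differences were smaller than the disagreement usual within a gene, a pooled SD of 0.27 over the 10523 genes that had several probe sets. The values of AFP and AFM lay between the lowest and the highest ALB probe set, so the 3 family members could not be ordered.

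ALB, AFP and AFM are consecutive protein-coding genes on chromosome 4 in the RefSeq gene order. ANKRD17, the gene before ALB, had a difference of -0.21 ± 0.52 (SD, 2 probe sets), and RASSF6, the gene after AFM, -0.08 ± 0.44 (SD, 3 probe sets). No gene of this run of 5 reached 1.5-fold on average.

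AHSG encodes fetuin-A, a liver glycoprotein that keeps calcium phosphate in solution and inhibits insulin receptor signalling. Its probe sets had centred values of 0.52 and 0.43 in the control and -0.52 and -0.43 in the CD24 shRNA array. The differences were -1.03 and -0.85, with a mean of -0.94 ± 0.13 (SD, 2 probe sets), which is 1.92-fold lower. AHSG had rank 116 of 19775 genes counted from the lowest. Both AHSG probe sets have names ending in _s_at, so no value remained without that class.

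FETUB, which encodes fetuin-B, an inhibitor of the egg coat protease ovastacin, is the next protein-coding gene after AHSG on chromosome 3 and belongs to the same cystatin superfamily. Its probe sets had differences of -0.47, 0 and 0.58, with a mean of 0.04 ± 0.53 (SD, 3 probe sets). The probe sets went opposite ways, and of 2780 genes with 3 probe sets 3.74% had a larger SD. The one at -0.47 was placed below 4, and without it FETUB lay at 0.29. Every AHSG probe set lay below every FETUB probe set, and the gene means differed by -0.98, AHSG minus FETUB. With 1 array per group this difference between neighbours was not tested.

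The genes that follow FETUB in the same cystatin cluster were below 0. HRG, histidine-rich glycoprotein, lay at -0.29 ± 0.23 (SD, 2 probe sets). KNG1, the kininogen precursor of bradykinin, lay at -0.45 ± 0.02 (SD, 3 probe sets), with probe sets between -0.47 and -0.43. DNAJB11, an endoplasmic reticulum co-chaperone that precedes AHSG and belongs to another family, lay at 0.12 on 1 probe set. Of the 16 cystatin superfamily genes measured, 9 lay below 0, 6 above and 1 at 0. AHSG was the only one past 1.5-fold, where 2.38% of all genes were lower and 2.63% higher, and the median was -0.05. Among the others, CSTA and CST2, which encode cysteine protease inhibitors, lay at -0.47 and 0.38, each on 1 probe set near the background.

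FABP1, the liver fatty acid-binding protein of the hepatocyte cytosol, was the member whose probe sets agreed best. The centred values were 0.33 and 0.30 in the control and -0.33 and -0.30 in the CD24 shRNA array. The differences of -0.67 and -0.61 gave a mean of -0.64 ± 0.04 (SD, 2 probe sets), or 1.56-fold lower, at rank 381 from the lowest. Of 5015 genes with 2 probe sets, 16.5% had a smaller SD. FABP1 lay just past 1.5-fold, and when spiked hybridisation controls set the scale it lay at -0.53, short of that size.

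FABP1 belongs to the intracellular lipid-binding proteins, of which 12 of 16 were measured. 10 of the 12 lay below 0, 4 were at least 1.5-fold lower, none was 1.5-fold higher, and the median was -0.33. Over all genes, 47.5% lay below 0, 2.38% were 1.5-fold lower and 2.63% higher. FABP3, the heart-type fatty acid-binding protein, was lower than FABP1, at 2.97-fold lower (-1.57 ± 0.13, SD, 2 probe sets). RBP2, an intestinal retinol-binding protein, lay at -1.01 and RBP7, a retinol-binding protein of the same family, at -0.74, on 1 probe set each. FABP5, the epidermal type, lay at -0.41 and FABP2, the intestinal type, at 0.39, also on 1 probe set each. Among genes of fatty acid uptake and activation, 11 of 14 measured lay below 0, 3 were 1.5-fold lower and none higher (median -0.12). These were ACSM3, a medium-chain acyl-CoA synthetase (-1.09 ± 0.27, SD, 2 probe sets), and the long-chain acyl-CoA synthetases ACSL4 (-0.84 ± 0.19, SD, 3 probe sets) and ACSL5 (-0.66 ± 0.50, SD, 2 probe sets). SLC27A1, a fatty acid transport protein, lay at -0.52 on 1 probe set.

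TF encodes transferrin, which carries ferric iron to cells that bear the transferrin receptor. Its 4 probe sets had differences of -0.83, -0.45, -0.44 and -0.08. The mean was -0.45 ± 0.30 (SD, 4 probe sets), or 1.37-fold lower, with mean centred values of 0.22 in the control and -0.22 in the CD24 shRNA array. All 4 lay on the same side of 0, and the middle pair nearly coincided. The one at -0.08 was placed below 4, and without it TF lay at -0.57. Of the other transferrin family genes, LTF, lactotransferrin, lay at -0.18 on 1 probe set near the background and MELTF, melanotransferrin, at 0.33 ± 0.33 (SD, 4 probe sets).

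The genes that handle iron beside transferrin did not lie on 1 side as a list. Of 14 measured of 16, 10 lay below 0, 4 were at least 1.5-fold lower and 1 higher, with a median of -0.04. The shares of all genes were 47.5% below 0, 2.38% at least 1.5-fold lower and 2.63% higher. TFR2, the receptor by which hepatocytes sense iron-loaded transferrin, lay at -0.89 ± 0.76 (SD, 3 probe sets, from -1.68 to -0.16). HJV, hemojuvelin, lay at -0.72 and HAMP, the iron hormone hepcidin, at -0.69, each on 1 probe set. The other gene that was 1.5-fold lower was CP, the copper ferroxidase ceruloplasmin, at -1.37 ± 0.39 (SD, 4 probe sets). HFE, TMPRSS6 and BMP6, which also act on hepcidin, lay at -0.05 ± 0.20 (SD, 15 probe sets), -0.16 ± 0.24 (SD, 3 probe sets) and 0.04 ± 0.18 (SD, 3 probe sets). TFRC, the uptake receptor for transferrin, lay at -0.04 ± 0.19 (SD, 5 probe sets). SLC40A1, the iron exporter ferroportin, lay at 0.32 ± 0.31 (SD, 2 probe sets), and the gene that was higher, HEPH, a membrane ferroxidase, had probe sets at 0 and 1.70.

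RBP4 and TTR, whose proteins form the retinol transport complex, lay on opposite sides of 0. RBP4 had differences of -0.48 and -0.17, a mean of -0.32 ± 0.21 (SD, 2 probe sets) and centred values of 0.16 in the control and -0.16 in the CD24 shRNA array. Both RBP4 probe sets have names ending in _s_at, so RBP4, like AHSG, had no value without that class. TTR, transthyretin, had centred values of -0.20 and 0.20 and a difference of 0.40 on 1 probe set, or 1.32-fold higher. TTR had rank 18593 from the lowest, and RBP4 rank 1685. RBP4 minus TTR was -0.73, and both RBP4 probe sets lay below the TTR probe set. The TTR value rests on a single probe set, so it has no spread of its own.

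Around this complex, retinol handling genes lay on both sides, with 7 of 17 measured below 0, 9 above and 1 at 0 (median 0.01). None was 1.5-fold lower and 1 was higher: CYP26A1, which degrades retinoic acid, at 0.89 on 1 probe set, or 1.85-fold. RDH10, a retinol dehydrogenase, lay at 0.38 ± 0.28 (SD, 4 probe sets). RARB, a retinoic acid receptor, lay at 0.33 ± 0.52 (SD, 5 probe sets), and DGAT1, which can esterify retinol, at -0.37 on 1 probe set. STRA6, the receptor for RBP4, lay at 0.04 ± 0.30 (SD, 3 probe sets), and LRAT, which stores retinol as esters, at 0. RBP4 is a lipocalin, and of the 12 lipocalins measured 9 lay below 0, 3 were 1.5-fold lower and none higher (median -0.14). These 3 were APOM, a carrier of sphingosine 1-phosphate (-0.86 ± 0.0044, SD, 2 probe sets), the siderophore-binding LCN2 (-0.86) and the acid glycoprotein ORM1 (-0.62), the last pair on 1 probe set each. APOD, apolipoprotein D, was the highest lipocalin at 0.56 on 1 probe set. Beside the retinol and lipocalin counts, 47.5% of all genes lay below 0, 2.38% were 1.5-fold lower and 2.63% higher.

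TTR shares the transport of thyroid hormone with albumin and with SERPINA7, thyroxine-binding globulin, and these 3 carriers had different values. TTR lay at 0.40, ALB at -0.11 and SERPINA7 at -0.78, or 1.72-fold lower, on 1 probe set. Among 11 measured genes of thyroid hormone handling, 7 lay below 0, and SERPINA7 was the only one 1.5-fold lower (median -0.05). SLC7A5, an amino acid transporter that also moves thyroid hormone, was the only one higher, at 0.93 on 1 probe set. Over all genes, 47.5% lay below 0, 2.38% were 1.5-fold lower and 2.63% higher. DIO1, a deiodinase of the liver, lay at -0.49 on 1 probe set near the background and CRYM, a cytosolic binding protein, at -0.29 on 1 probe set.

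Of the measured genes for albumin recycling and endocytic uptake, only DAB2 passed 1.5-fold. The transferrin receptors TFR2 and TFRC are given above with the iron genes. FCGRT, the receptor that returns albumin to the circulation, lay at -0.01 on 1 probe set, and its light chain B2M at -0.05 ± 0.32 (SD, 3 probe sets). LRP2 and CUBN, endocytic receptors for several of these carriers, lay at -0.03 ± 0.14 (SD, 2 probe sets) and at 0.11 on 1 probe set near the background. LRPAP1, their chaperone, lay at 0.28 ± 0.14 (SD, 3 probe sets), and DAB2, an adaptor of LRP2 endocytosis, at 0.71 ± 0.46 (SD, 7 probe sets, 3 near the background). Of the 6 measured, 3 lay below 0, none was 1.5-fold lower and 1 was higher (median 0.05). The shares of all genes were 47.5% below 0, 2.38% at least 1.5-fold lower and 2.63% higher. Of 8 measured genes of vitamin D handling, none passed 1.5-fold and the median was 0.02, with 4 below 0. CYP27B1, which activates vitamin D, lay at -0.55, CYP27A1, a sterol hydroxylase, at 0.14, DHCR7, a sterol reductase, at -0.18 ± 0.07 (SD, 2 probe sets), and VDR, the vitamin D receptor, at 0.31 ± 0.35 (SD, 4 probe sets).

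Other carriers that the liver secretes lay lower than the members by the median, at -0.37 over 19 genes measured of 20. 15 of the 19 lay below 0, 7 were at least 1.5-fold lower and none was 1.5-fold higher. Of these 7, CP, SERPINA7, APOM and ORM1 were already counted above among the iron, thyroid hormone and lipocalin genes, so the counts overlap. Over all genes, 47.5% lay below 0, 2.38% were 1.5-fold lower and 2.63% higher. Among the 9 members, 2 were 1.5-fold lower and none higher. The lowest were CP, HP, the hemoglobin scavenger haptoglobin (-1.19), APOM, and HPR, a haptoglobin-related protein (-0.78), with HP and HPR on 1 probe set each. HP and HPR are near-identical in sequence, so their signals may not be separable. TCN2, the vitamin B12 carrier transcobalamin, was on the other side at 0.46 on 1 probe set, as TTR was among the members. Whether the members differ from this list was not tested.

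**Figure D3:**
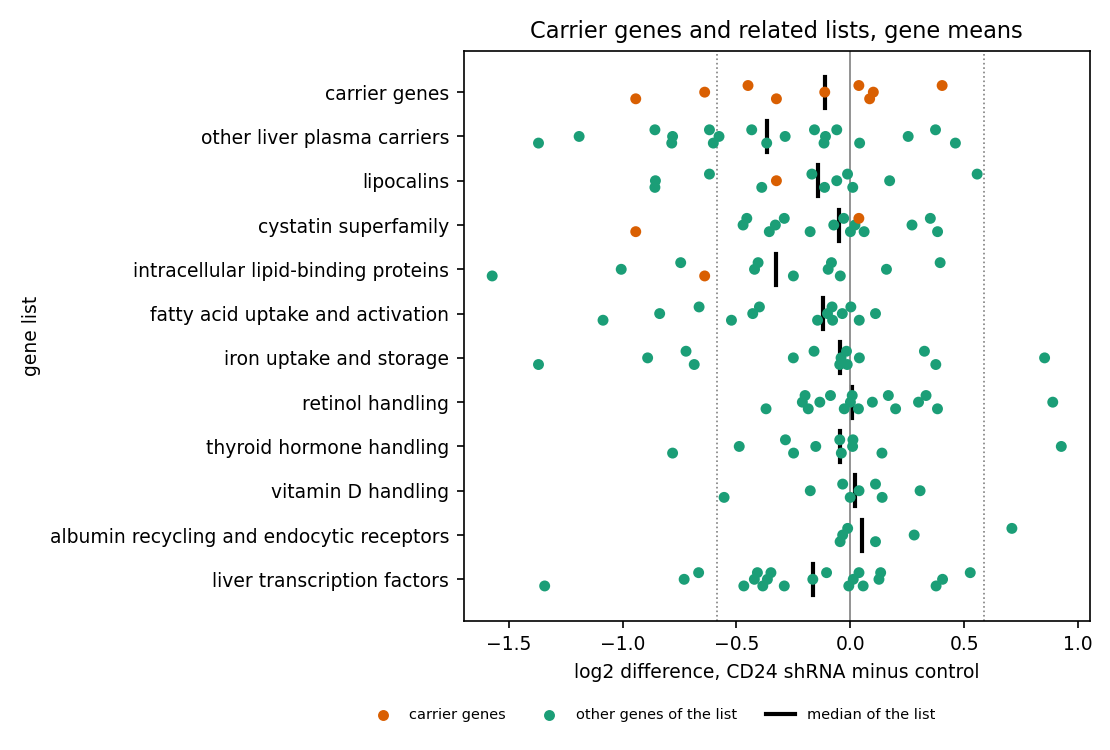
Log2 difference of gene means for the 9 carrier genes and for 11 related lists, with carrier genes in orange, other genes of each list in green, the median of each list as a bar and dotted lines at 1.5-fold. The other liver plasma carriers have a median of -0.37 and the carrier genes of -0.11.

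Transcription factors known to act on the promoters of these genes were on both sides of 0. Of 21 liver transcription factors measured, 13 lay below 0 and 8 above, 3 were at least 1.5-fold lower and none higher, with a median of -0.16. The shares of all genes were 47.5% below 0, 2.38% at least 1.5-fold lower and 2.63% higher. NR0B2, known as SHP, which lacks a DNA-binding domain and represses other nuclear receptors, lay at -1.34 on 1 probe set. HLF, a factor of the PAR bZIP family, lay at -0.73 ± 0.09 (SD, 3 probe sets), and PROX1, a homeobox factor of the hepatocyte, at -0.67 ± 0.19 (SD, 4 probe sets). CEBPA and CEBPB, activators of ALB and other liver genes, lay at -0.47 and -0.42 on 1 probe set each, and CEBPD, of the same family, at 0.40 ± 0.34 (SD, 2 probe sets). Of the FOXA factors, FOXA1 lay at 0.13 ± 0.06 (SD, 2 probe sets), FOXA2 at -0.01 ± 0.08 (SD, 3 probe sets) and FOXA3 at -0.41 on 1 probe set.

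Beside AFP, which lay at 0.08, its known postnatal repressors went opposite ways. ZBTB20 lay at 0.53 ± 0.36 (SD, 12 probe sets, from -0.50 to 0.85) and ZHX2 at -0.38 ± 0.18 (SD, 2 probe sets). NR5A2, a nuclear receptor that activates AFP, lay at 0.01 ± 0.32 (SD, 4 probe sets).

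The promoter table held 12 windows for 8 of the carriers, and none for TTR or GC. TF and FETUB had 2 windows each and RBP4 had 3. All 3 albumin family windows were rich in A and T, at 70.0% for ALB, 68.4% for AFP and 72.0% for AFM, whose window is chr4:73481495-73481744 on the plus strand, against a median of 42.0% over 35116 windows. The loose C/EBP element TTGCNNAA was found in 8 of the 12 windows, and in at least 1 window of each of the 8 genes, against 9.05% of all windows. The HNF1 half-site GTTAAT was found in 4 windows, those of ALB, AFP, AFM and FABP1, against 6.23% of all. In ALB it began at -61 from the start, in AFP at -132, in AFM at -137 and in FABP1 at -108.

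The TATA box was found in 6 of the 12 windows (10.7% of all). It began at -29 in AFP, at -30 in AFM and 1 FETUB window, and at -31 in FABP1 and 1 RBP4 window. Another RBP4 window held it only farther from the start, at -227 and -225. CCAAT was in 5 windows (32.0% of all) and the FOXA core in 4 (15.5% of all), with AHSG holding a pair of FOXA matches at -137 and -116. The HNF4 core was found only in AHSG, at -179, against 0.325% of all windows. Of these motifs, the HNF1 half-site was shared by ALB, AFP and AFM, with means between -0.11 and 0.10, and by FABP1, which was 1.56-fold lower, and AHSG, the lowest member, had none in this window. A match is a run of letters and not a site of binding, and A and T content differs between these windows and the rest.

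**Figure D4:**
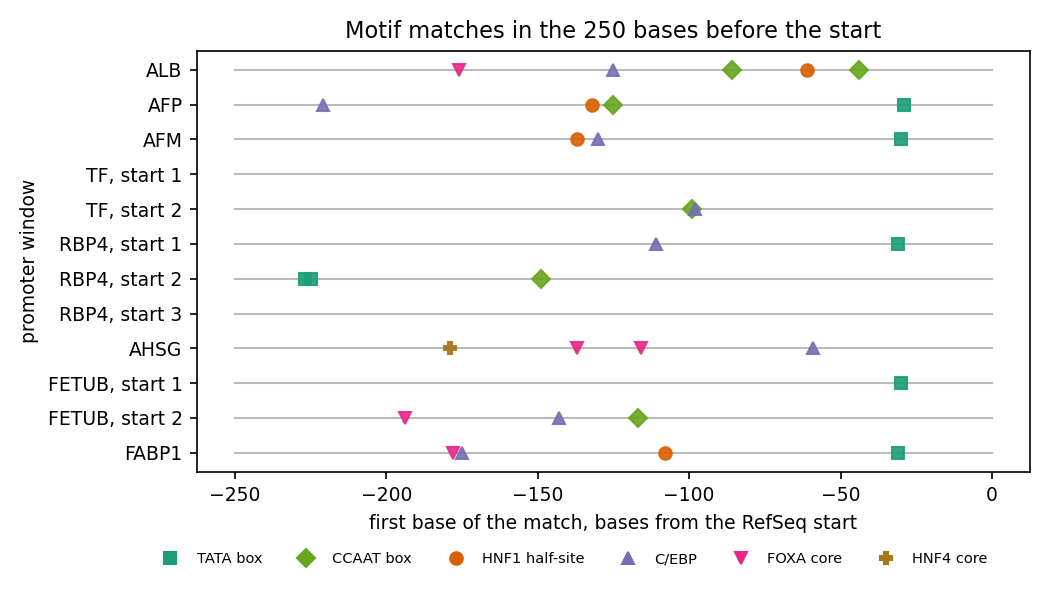
Positions of motif matches on either strand in the 12 RefSeq promoter windows of 8 carrier genes, as the first base of each match counted from the start of the gene; starts of a gene are numbered by coordinate. The HNF1 half-site appears in ALB, AFP, AFM and FABP1, the C/EBP element in at least 1 window of every gene, and neither the first TF window nor the third RBP4 window holds a match.

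Markers of the hepatocyte and of other cell types were set beside these values as differences, since levels were not in the table. Of 6 measured hepatocyte markers outside the set, 5 lay below 0, against 47.5% of all genes, and the median was -0.19. APOA1 lay at -0.05 ± 0.06 (SD, 3 probe sets) and SERPINA1 at -0.29 ± 0.34 (SD, 4 probe sets). On 2 probe sets each, APOB lay at -0.09 ± 0.16, APOA2 at -0.37 ± 0.08 and APOH at -0.43 ± 0.26 (SD). FGB lay at 0.59 ± 0.02 (SD, 2 probe sets). Of 6 fibroblast or stellate cell markers, 5 lay above 0 (median 0.16), led by LUM at 1.12 ± 1.41 on 2 probe sets that were both near the background. The 3 cholangiocyte markers had a median of 0.19. KRT19 lay at 0.63 ± 0.34 (SD, 2 probe sets, 1 near the background) and KRT7 at 0.19 ± 0.27 (SD, 4 probe sets, 2 near the background). The 3 endothelial markers had a median of -0.05, and the 3 leukocyte markers measured had a median of 0.08. Both cultures were of the line Huh7, so these values are differences of marker transcripts in that line and not shares of cell types. Their relation to the carriers' differences was not tested.

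The way probe sets were combined moved ALB, FETUB and TF the most. With the probe set of largest absolute difference in place of the mean, ALB lay at -0.66, FETUB at 0.58 and TF at -0.83. AHSG lay between -1.03 and -0.83 under every alternative that gave it a value. With 2 probe sets, neither placed below 4, it could move only with the largest probe set and with the scaling. TTR lay between 0.40 and 0.51.

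**Figure D5:**
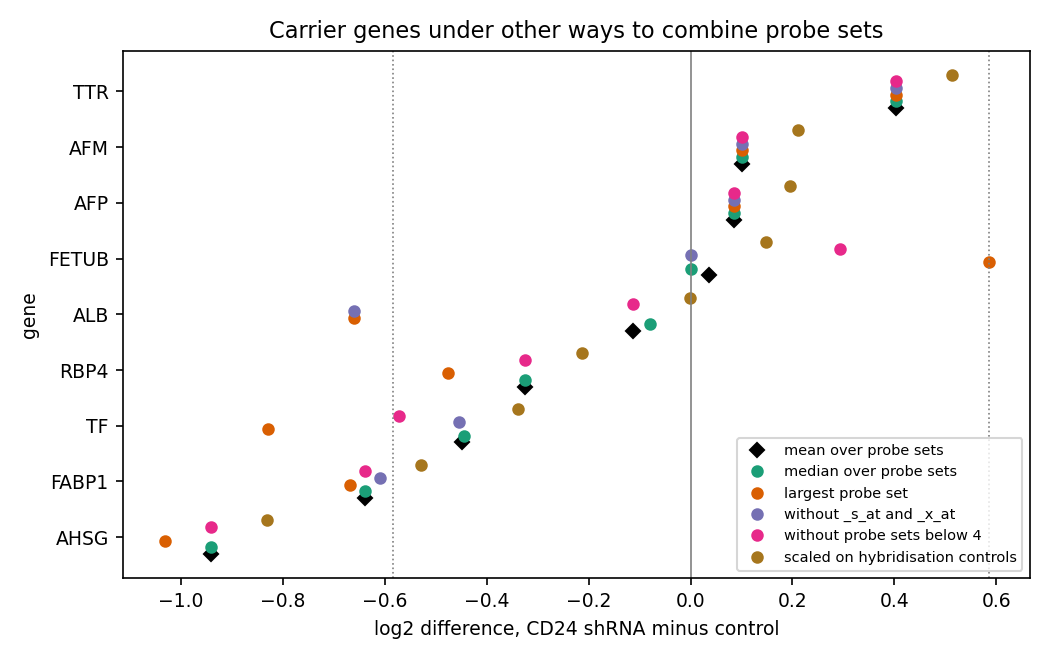
Log2 difference of each carrier gene under the mean over probe sets (black diamonds) and 5 alternatives (coloured circles), with dotted lines at 1.5-fold. AHSG, which only the largest probe set and the scaling could move, stays below the lower dotted line wherever it has a value. ALB reaches -0.66 where a single probe set stands for the gene.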

How the data were processed

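Total RNA of 2 Huh7 cultures, 1 with a non-target control shRNA and 1 with a CD24 shRNA, was extracted with Trizol and labelled with biotin, per the labels. RMA, the only tool in the submitters' processing notes, gave the log2 values the authors deposited. The software, the version and the centring were not given in the sources used here. Across the file the 2 values of a probe set sum to 0 within 1e-06, so only differences remain. Of 54675 probe sets, 41091 named 1 gene and entered the analysis, while 1801 had several symbols and 11721 had none here, and 62 control probe sets were left out. Gene values are means over probe sets (Python 3.11.15, pandas 2.3.3). Called means 1.5-fold, with a lower limit (0.32 on the log2 scale) and 2-fold beside it. The calculations were tested on simulated data. The design planned no test, since each group has 1 array.

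The members and lists were chosen with earlier results of these data known. The genes named are all members, CD24, the 4 largest absolute differences of each list, and receptors, enzymes and promoter factors named in the design. HRG, DNAJB11, ANKRD17, RASSF6, FABP2, FABP5, TCN2, HFE, TMPRSS6, BMP6, CEBPD, FOXA1, FOXA3 and the cell type markers were added with their values already seen. Listed genes were matched by Entrez ID to GRCh38.p14. Depth is not defined for arrays, and their number limits the precision. Alternatives were the median or the largest probe set, leaving out _s_at and _x_at probe sets or those placed below 4, centring, and scaling on 18 hybridisation control probe sets.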

Additional observations from a re-analysis of the deposited data

How the results depend on the processing

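Scaling on the hybridisation controls added 0.11 to every difference, which moved the median of all genes from 0 to 0.11, and changed the split over all genes at 1.5-fold from 470 lower and 521 higher to 302 lower and 810 higher. Under it 1 member in place of 2 was 1.5-fold lower, no member changed sign, and the medians of the cystatin, iron, thyroid hormone and endothelial lists turned from just below 0 to 0.06, 0.07, 0.06 and 0.06. With the probe set of largest absolute difference, 4 members were 1.5-fold lower, against 5.55% of all genes, and the median of the members was -0.48. AHSG lay at -1.03 there, and the share of all genes past 2-fold was not computed for that setting. At a log2 limit of 0.32 in place of 1.5-fold, 4 members were lower and 1 higher, against 8.65% and 9.16% of all genes. Without _s_at and _x_at probe sets 7 members were left, 3 lay below 0 and the median was 0. Under the scaling the median of the members was -0.0014. Gene values moved by more than their SD between probe sets for ALB (largest probe set, and without _s_at and _x_at), FABP1 (scaling), FETUB and TF (largest probe set), and no called value changed sign. Centring changed nothing, since the median of all genes is 0, and AFP, AFM and TTR, with 1 probe set each, could move only with the scaling. No paired analysis was possible because each group has 1 array. The deposited values hold no level, so signal over background was known only as the coarse placement.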
